A study of Mus musculus with 9 samples.

Results

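Phosphatidylserine receptors and the adaptors behind them are described here across macrophages of the mouse joint lining, macrophages of the deeper synovium and macrophages grown from bone marrow. The group was defined by symbol as Timd4, Havcr2, Stab1, Mfge8, Elmo1, Dock1, Dock2, Lrp1 and Gulp1, 9 of the 53465 genes in the count table, and all 9 were found there. Of these, 8 passed the filter on low counts that left 12610 genes to test, and Gulp1 did not. Phosphatidylserine is a lipid that living cells keep on the inner face of the plasma membrane and dying cells expose. Macrophages bind it directly through receptors such as TIM-4 or through secreted bridging proteins such as MFG-E8. Some of the receptors involved act through ELMO and DOCK proteins on the GTPase Rac, which remodels actin and closes the phagocytic cup. Tissue-resident macrophages are known for clearing dying cells in this way.

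Poly(A) RNA was sequenced from 9 libraries, 3 in each of 3 groups. Lining macrophages (libraries A, B and C) were CD45+CD11b+F4/80+ cells carrying green fluorescent protein (GFP), sorted from the synovium of hind paws of healthy Cx3cr1-GFP mice, in which GFP reports the gene of the fractalkine receptor. Interstitial macrophages (D, E and F) came from the same kind of mice and the same surface gate but were GFP-negative. Bone marrow-derived macrophages (BMDM; G, H and I) were grown from C57BL/6 marrow for 5 days in medium conditioned with MCSF, the macrophage growth factor. Strain, tissue and culture differ together between BMDM and the sorted cells and cannot be told apart. The labels do not say whether libraries of a group are separate animals or pools, so p-values measure the spread between these libraries, which may be technical.

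Depth ran from 2194920 to 11137451 counts in lining, from 2238261 to 10807462 in interstitial and from 19427273 to 22499823 in BMDM libraries. Levels are given as CPM, read counts relative to library size after edgeR's TMM factors (trimmed mean of M values), and 3 counts in a library correspond to 0.286 to 1.46 CPM in lining, 0.273 to 1.33 CPM in interstitial and 0.130 to 0.149 CPM in BMDM. Interstitial D stood apart, with a score of -158 on the second principal component of log2 CPM against -9.77 to 95.6 in the other libraries, so the fold changes of the 8 tested genes between lining and interstitial are also given without it. Cx3cr1, the reporter gene of the sort, had 663 to 775 CPM in lining and 2.66 to 7.86 CPM in interstitial libraries. All 8 macrophage markers were detected in each group, with summed levels of 23676 to 30375 CPM in lining, 13443 to 23050 CPM in interstitial and 14821 to 18777 CPM in BMDM. The 8 fibroblast markers, all detected in both sorted groups, summed to 171 to 304 CPM in lining and 191 to 693 CPM in interstitial libraries, and in BMDM, where Lum was at 0, to 2.08 to 2.88 CPM. The 6 neutrophil markers summed to 0 to 4.10 CPM in lining, where Ly6g and Mpo were at 0, to 0 to 80.3 CPM in interstitial and to 26.6 to 30.9 CPM in BMDM. The 4 B cell markers summed to 0.970 to 5.54 CPM in lining and 8.92 to 10.7 CPM in interstitial libraries. The 5 dendritic markers summed to 1.45 to 29.3 CPM and 25.3 to 59.5 CPM. Among them Zbtb46 had 0.970 to 13.5 CPM in lining and 17.3 to 22.1 CPM in interstitial. Flt3 overlapped at 0 to 12.9 and 7.98 to 13.4 CPM, as did Ccr7 at 0 to 2.77 and 0 to 23.2 CPM. Xcr1 had no read in lining and 0 to 0.910 CPM in interstitial, while Clec9a had 2 reads in lining B and 0 in interstitial. The 6 endothelial markers summed to 30.4 to 41.7 CPM in lining and 45.1 to 135 CPM in interstitial libraries. The macrophage, endothelial and B cell sums and Zbtb46 did not overlap between these groups. Of these, the macrophage sums were higher and the others lower in lining. Taken singly, each B cell marker overlapped, as did Ptprc, Itgam and Csf1r of the macrophage list and Kdr, Tek and Vwf of the endothelial list. Adgre1, Cd68, Fcgr1, Mertk and Lyz2 did not overlap and were higher in lining, and Pecam1, Cdh5 and Emcn did not overlap and were lower. Lyz2 made up most of the macrophage sums, at 14963 to 20083 CPM in lining and 6971 to 13432 CPM in interstitial. The fibroblast, neutrophil and dendritic sums overlapped. The part of all these markers in the differences below was not tested.

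Among the 9 genes, 3 lie on chromosome 11 (GRCm38), and these have 3 different group patterns. Timd4 (ENSMUSG00000055546, 46810800 to 46844332, plus strand) was present in both synovial groups and all but missing in BMDM. Havcr2 (ENSMUSG00000020399, 46454935 to 46481255, plus strand) was high in lining alone, and Dock2 (ENSMUSG00000020143, 34226815 to 34783892, minus strand) was low in interstitial alone. Their promoters are shown for that reason, as the 250 bases before the RefSeq gene start on GRCm38.p6, read 5′ to 3′ on the strand of the gene, with capitals marking motif matches. The windows are chr11:46810549-46810798 on the plus strand for Timd4, chr11:46454681-46454930 on the plus strand for Havcr2 and chr11:34783906-34784155 on the minus strand for Dock2.
Timd4: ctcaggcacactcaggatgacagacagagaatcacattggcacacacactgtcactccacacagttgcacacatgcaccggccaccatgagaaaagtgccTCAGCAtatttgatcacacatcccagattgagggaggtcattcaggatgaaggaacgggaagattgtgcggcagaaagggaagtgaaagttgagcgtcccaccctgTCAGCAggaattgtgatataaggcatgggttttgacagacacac
Havcr2: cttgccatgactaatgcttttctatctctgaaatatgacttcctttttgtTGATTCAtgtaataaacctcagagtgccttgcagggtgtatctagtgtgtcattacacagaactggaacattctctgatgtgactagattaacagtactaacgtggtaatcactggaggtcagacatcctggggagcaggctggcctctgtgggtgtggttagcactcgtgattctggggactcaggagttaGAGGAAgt
Dock2: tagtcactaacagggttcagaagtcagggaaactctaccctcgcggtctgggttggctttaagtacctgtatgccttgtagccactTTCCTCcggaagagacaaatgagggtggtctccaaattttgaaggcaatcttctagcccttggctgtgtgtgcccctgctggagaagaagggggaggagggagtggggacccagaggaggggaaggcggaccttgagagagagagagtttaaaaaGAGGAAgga
Windows of all 9 genes were found in the RefSeq table, 10 in all since Elmo1 has a pair. Both strands of each window were searched for 8 short motifs of factors known from macrophages or from promoters in general. Shares are those of all 32851 windows of this length in the table that hold the motif. The core of the PU.1 motif was read as GAGGAA (23.3% of windows). The motif of AP-1, the dimer of Fos and Jun proteins, was read as TGANTCA (6.75%). The E-box motif was read as CACGTG (6.02%), and the motif of the general factor SP1 was read as GGGCGG (32.7%). The CRE motif of cyclic AMP signalling was read as TGACGTCA (1.55%), and that of the C/EBP proteins was read as TTGCNNAA (9.56%). For the MAF proteins a part of the motif was used, which is TGCTGA (16.1%), and the TATA box of core promoters was read as TATAAA (12.4%). No matches overlap in the printed windows. The Timd4 window holds the TGCTGA motif on the minus strand at 150 and 44 bases before the start, printed as its reverse complement TCAGCA. The Havcr2 window holds the AP-1 motif at 200 and GAGGAA at 8 bases before the start, and the Dock2 window holds GAGGAA at 9 bases and, on the minus strand, at 164 bases. The SP1 motif is in none of the printed windows, whose GC content is 50% for Timd4, 44.8% for Havcr2 and 52.8% for Dock2. It is in a window each of Mfge8, Elmo1, Dock1, Lrp1 and Gulp1, with GC content of 65.2%, 61.6%, 71.6%, 67.2% and 56.8%. These matches describe letters and say nothing about binding.

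Timd4 encodes TIM-4, a receptor that binds phosphatidylserine directly and is a marker of resident macrophages in several tissues. It had 139, 83.03 and 122 CPM in lining A, B and C, and 192, 102 and 66.5 CPM in interstitial D, E and F, against 0.0432 CPM in BMDM G and 0 in H and I. Every synovial library was far above every BMDM library, while the lining values all lay inside the interstitial range. The BMDM value rests on 1 read in 3 libraries, so the fold over BMDM is a counting ratio of 6331 for lining (95% interval 1134 to 250210) and of 6746 for interstitial (1209 to 266589). Without BMDM G, which held the read, the lower limits of the 95% intervals were 1104 for lining and 1176 for interstitial. Set against a floor of 3 counts over the BMDM group, the ratios were 1359 for lining and 1448 for interstitial. Both contrasts with BMDM were called higher by edgeR's quasi-likelihood test (adjusted p = 1.65e-07 for lining and 1.67e-07 for interstitial). Lining and interstitial averaged 115 ± 28.6 and 120.0 ± 64.4 CPM (SD, n = 3 each), a log2 fold change of -0.06 ± 0.34 (SE) with a 95% interval of -0.81 to 0.69 (edgeR adjusted p = 0.952). The interval admits a difference of either sign, and the log2 fold change turned to 0.40 without interstitial D.

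Havcr2 encodes TIM-3, a relative of TIM-4 that also binds phosphatidylserine and is best known as an inhibitory receptor of T cells. The lining libraries A, B and C had 392, 365 and 343 CPM, and the interstitial libraries D, E and F had 37.7, 70.9 and 87.5 CPM. The BMDM libraries G, H and I had 84.0, 79.4 and 76.6 CPM. All 3 lining libraries lay above every other library, and the interstitial range enclosed the BMDM range. Lining exceeded interstitial 5.53-fold (log2 fold change 2.47 ± 0.23 SE, edgeR adjusted p = 7.86e-05) and BMDM 4.58-fold (2.20 ± 0.23, edgeR adjusted p = 1.10e-05). Without interstitial D, the library with the lowest Havcr2, the log2 fold change of lining over interstitial was 2.19. Interstitial against BMDM gave -0.27 ± 0.22, with a 95% interval of -0.76 to 0.21 (edgeR adjusted p = 0.348). The T and NK marker list, whose cells also use this receptor, summed to at most 0.970 CPM in lining, 0.273 CPM in interstitial and 0.0922 CPM in BMDM, with Ncr1 at 0 in all groups, Cd3g at 0 in lining and interstitial, and Cd3e at 0 in interstitial and BMDM. The part of these or any other cells, such as dendritic cells, in the Havcr2 levels was not tested.

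Within a library, the ratio of Havcr2 to Timd4 per kilobase of exon was 2.26, 3.51 and 2.24 in lining A, B and C, and 0.157, 0.555 and 1.05 in interstitial D, E and F. The balance between the pair of TIM receptors was thus on the side of Havcr2 in every lining library and near even or on the side of Timd4 in the interstitial libraries. BMDM gave no usable ratio, since Timd4 had no read in H and I. Exon length here is that of all merged exons of a gene, so ratios between genes also depend on the annotated exons.

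Stab1 encodes stabilin-1, a large scavenger receptor of macrophages and sinusoidal endothelium that takes up modified lipoproteins and binds phosphatidylserine (ENSMUSG00000042286, chromosome 14, 31139013 to 31168641, minus strand). Its levels were 2450.2, 3598 and 2741 CPM in lining A, B and C, and 3296, 2701 and 1849 CPM in interstitial D, E and F, against 1139, 1116 and 1011 CPM in BMDM G, H and I. The synovial groups overlapped each other and both lay above BMDM. The increase over BMDM was 2.69-fold in lining (log2 fold change 1.43 ± 0.21 SE, edgeR adjusted p = 1.75e-04) and 2.40-fold in interstitial (1.26 ± 0.21, edgeR adjusted p = 4.18e-04). Between lining and interstitial the log2 fold change was 0.16 ± 0.21, with a 95% interval of -0.28 to 0.61 (edgeR adjusted p = 0.727; 0.34 without interstitial D). An antisense exon of Nt5dc2 overlaps Stab1, and reads were counted by strand. The 6 endothelial markers, all detected in each group, summed to 30.4 to 41.7 CPM in lining, 45.1 to 135 CPM in interstitial and 139 to 146 CPM in BMDM. The BMDM sum was mostly Kdr (43.7 to 49.0 CPM) and Vwf (88.6 to 100.2 CPM), while Pecam1 had 0.970 to 4.49 CPM in lining and 9.10 to 33.6 CPM in interstitial against 0.876 to 0.908 CPM in BMDM. The part of endothelial RNA in the Stab1 levels was not tested.

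**Figure D1:**
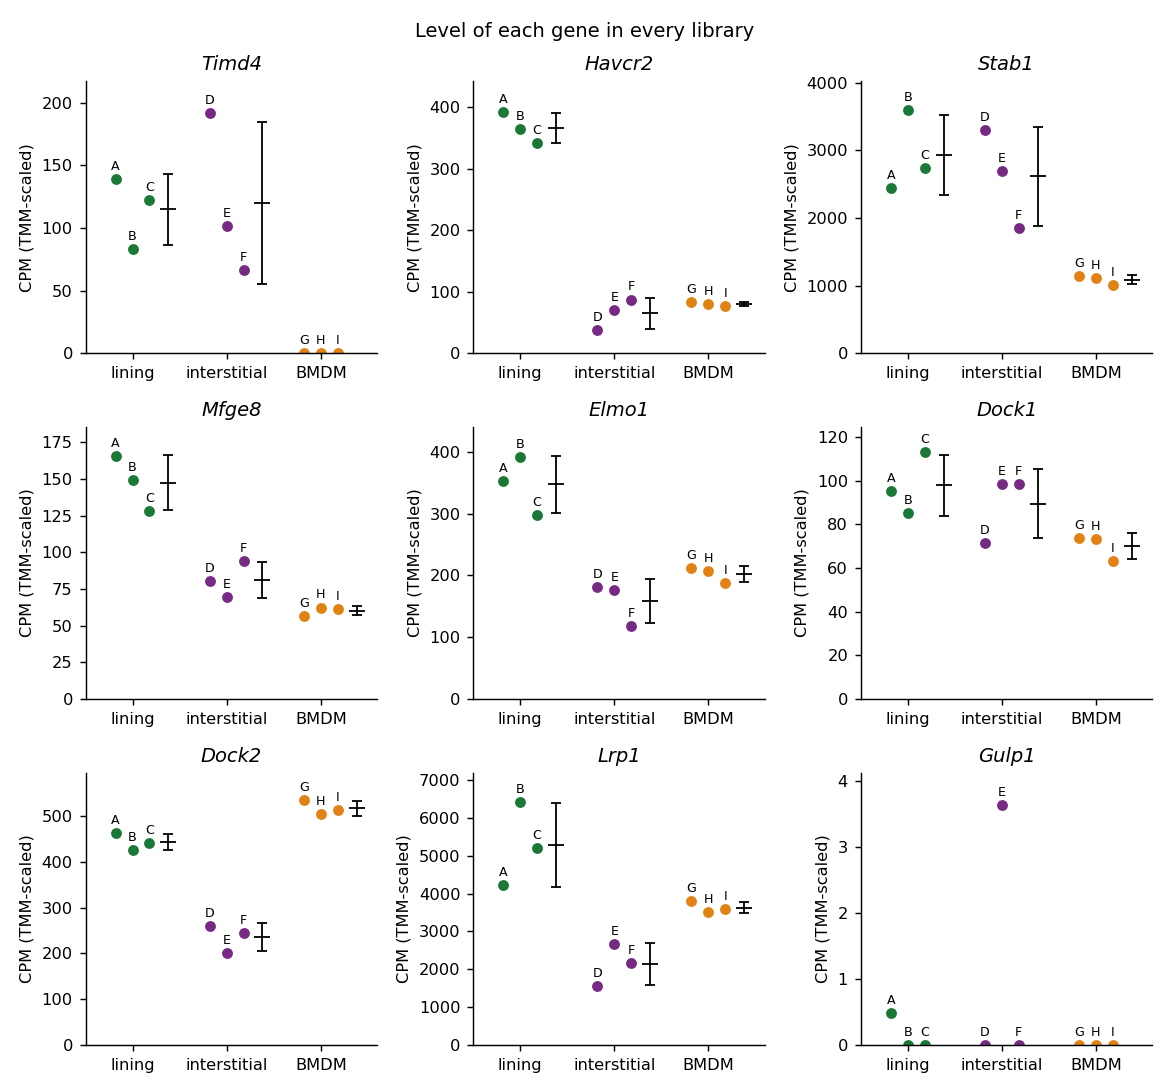
CPM of each gene in every library (points, lettered), with lining left of interstitial and interstitial left of BMDM, on a separate linear axis for each gene. Bars to the side give the mean and SD of groups with a read in every library. The 3 lining points of Havcr2 stand at 343 to 392 CPM above all others, and the Timd4 points of BMDM lie on the zero line.

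Lrp1 encodes an endocytic receptor of the LDL receptor family that takes up many ligands and, with calreticulin and C1q, dying cells (ENSMUSG00000040249, chromosome 10, 127538161 to 127621148, minus strand). Lining A, B and C had 4223, 6423 and 5200.4 CPM, and interstitial D, E and F had 1569, 2664 and 2175 CPM. The BMDM libraries had 3798, 3504 and 3582 CPM, which lay between the 2 synovial groups without touching either. Lining exceeded interstitial 2.47-fold (log2 fold change 1.31 ± 0.20 SE, edgeR adjusted p = 0.00236), and 1.10 on the log2 scale without interstitial D. Interstitial was 1.70-fold lower than BMDM (-0.76 ± 0.20, edgeR adjusted p = 0.00834). Lining was 1.46-fold higher than BMDM (0.54 ± 0.20, edgeR adjusted p = 0.0443), a call that was lost in 9 of 16 alternatives with an adjusted p of up to 0.253. Among these were a fit without lining B or C, without interstitial F and without any single BMDM library, as well as scaling by library totals, no filter and a filter on mean CPM. Fibroblasts also use Lrp1, and their marker sum was 191, 693 and 370.0 CPM in interstitial D, E and F, in the same order as Lrp1 among these libraries. In lining A, B and C the sum was 171, 184 and 304 CPM, in another order than Lrp1. It was 2.08, 2.88 and 2.49 CPM in BMDM G, H and I, also in another order. The part of fibroblast RNA in the Lrp1 levels was not tested.

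Mfge8 encodes MFG-E8, a secreted protein that bridges phosphatidylserine on the dying cell to αv integrins on the phagocyte (ENSMUSG00000030605, chromosome 7, 79133768 to 79149060, minus strand). It had 165, 149 and 128 CPM in lining A, B and C, 80.2, 69.2 and 94.1 CPM in interstitial D, E and F, and 56.6, 62.4 and 61.3 CPM in BMDM G, H and I. The 3 groups formed 3 separate steps with no overlap. The lining level was 1.82-fold the interstitial one (log2 fold change 0.86 ± 0.16 SE, edgeR adjusted p = 0.00742; 0.84 without interstitial D) and 2.45-fold that of BMDM (1.29 ± 0.16, edgeR adjusted p = 4.15e-05). The step between interstitial and BMDM was 1.35-fold (0.43 ± 0.16, edgeR adjusted p = 0.0412). That last call was lost in 7 of 16 alternatives, with an adjusted p of up to 0.194, namely with no filter and without lining B, interstitial D or F, or any single BMDM library.

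Inside the cell, Elmo1 and the DOCK proteins form the exchange factor that loads Rac with GTP. Elmo1, the regulatory subunit (ENSMUSG00000041112, chromosome 13, 20090596 to 20608353, plus strand), had 352, 391 and 298 CPM in lining A, B and C. It had 182, 176 and 117 CPM in interstitial D, E and F, against 212, 207 and 188 CPM in BMDM G, H and I. No group overlapped another, with lining highest and interstitial lowest. Lining exceeded interstitial 2.20-fold (log2 fold change 1.13 ± 0.18 SE, edgeR adjusted p = 0.00227; 1.22 without interstitial D) and BMDM 1.72-fold (0.78 ± 0.17, edgeR adjusted p = 0.00323). Interstitial against BMDM was not called at -0.35 ± 0.17 (edgeR adjusted p = 0.115), but was called lower with no filter (adjusted p = 0.0412) and without interstitial D (adjusted p = 0.0493). Exons of antisense genes overlap Elmo1 (Gm32036) and Dock2 (4930403D09Rik), and reads were counted by strand.

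The catalytic partners of Elmo1 are Dock2 and Dock1. Dock2, the family member restricted largely to blood cells, had 462, 426 and 442 CPM in lining A, B and C, and 260, 201 and 245 CPM in interstitial D, E and F. In BMDM G, H and I it had 534, 504 and 513 CPM. Interstitial libraries were the lowest, and lining lay just under BMDM with no overlap. Lining was 1.89-fold higher than interstitial (log2 fold change 0.92 ± 0.13 SE, edgeR adjusted p = 0.00126; 0.97 without interstitial D), and interstitial was 2.20-fold lower than BMDM (-1.14 ± 0.13, edgeR adjusted p = 2.24e-05). Lining against BMDM, at -0.22 ± 0.13, was not called (edgeR adjusted p = 0.183), but was called lower with library totals alone (adjusted p = 0.0474) and in a fit to just those groups (adjusted p = 0.0330).

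Dock1, the widely expressed member also known as DOCK180 (ENSMUSG00000058325, chromosome 7, 134670654 to 135173639, plus strand), had 95.5, 85.1 and 113 CPM in lining A, B and C. It had 71.4, 98.6 and 98.6 CPM in interstitial D, E and F, and 73.9, 73.5 and 63.2 CPM in BMDM G, H and I. Interstitial overlapped both other groups. Lining against interstitial gave a log2 fold change of 0.12 ± 0.17 SE, with a 95% interval of -0.26 to 0.50 (edgeR adjusted p = 0.774), and turned to -0.038 without interstitial D. Lining over BMDM was called at 1.39-fold (0.48 ± 0.17, edgeR adjusted p = 0.0411) but lost in 9 of 16 alternatives, with an adjusted p of up to 0.216. These were library totals, no filter, the filter on mean CPM, and fits without lining A or C, interstitial F or any single BMDM library. Interstitial over BMDM, at 0.36 ± 0.17 (edgeR adjusted p = 0.107), was called with limma-voom (adjusted p = 0.0282) and without interstitial D (adjusted p = 0.0344).

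Per kilobase of exon, Dock2 exceeded Dock1 in every library. The ratio was 3.95, 4.08 and 3.196 in lining A, B and C, 2.97, 1.66 and 2.03 in interstitial D, E and F, and 5.91, 5.599 and 6.63 in BMDM G, H and I. The 3 groups did not overlap in this ratio, and BMDM had the most Dock2 for its Dock1.

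Gulp1 encodes the adaptor GULP, which binds the cytoplasmic tails of LRP1 and stabilins (ENSMUSG00000056870, chromosome 1, 44551511 to 44796838, plus strand). It was all but undetected, with 1 read in lining A, 40 reads in interstitial E and 0 reads in the other 7 libraries. The 40 reads amount to 3.64 CPM, and interstitial E was also the library with the highest fibroblast marker sum, 693 CPM. The counting ratio of lining to interstitial was 0.0295 (95% interval 0.000729 to 0.174), and it covers counting error only. Without interstitial E, no read of Gulp1 was left in interstitial or BMDM libraries. With no filter, edgeR gave an adjusted p of 0.407 for lining against interstitial, 0.300 for lining against BMDM and 0.0107 for interstitial against BMDM, and for the last DESeq2 gave 0.0666. In the remaining libraries, levels under the floor of 3 counts could not be told from 0. That floor was 0.130 to 0.149 CPM in BMDM, 0.286 to 1.46 CPM in lining, and 1.33 and 0.637 CPM in interstitial D and F.

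Set side by side, 5 of the 8 tested genes were higher in lining than in interstitial macrophages (Havcr2, Lrp1, Elmo1, Dock2 and Mfge8) and 0 were lower. Over all 12610 genes, 5.79% were called in this comparison, 3.74% higher and 2.05% lower. The same 5 stayed called in each of the 16 alternatives, with highest adjusted p of 0.00156 for Havcr2, 0.0111 for Dock2, 0.0236 for Lrp1, 0.0237 for Elmo1 and 0.0382 for Mfge8. Their values did not overlap between lining and interstitial libraries, while those of Timd4, Stab1 and Dock1 did. The share of all genes without such overlap was not counted, so this adds nothing to the calls. The median log2 fold change was 0.89 over the 8 genes and -0.01 over all genes. Because these genes were chosen with earlier results of these data known, shares and medians beside all genes, here and against BMDM, are description only. Scaling by library totals alone moved the split of all called genes to 380 higher of 706, against 471 higher of 730 with TMM.

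Against BMDM, 7 of the 8 were called higher in lining and 0 lower, where 43.5% of all genes were called, 23.1% higher and 20.5% lower. In interstitial macrophages 3 were higher (Timd4, Stab1 and Mfge8) and 2 lower (Dock2 and Lrp1), where 44.8% of all genes were called, 23.4% higher and 21.3% lower. The share of these genes called was thus 87.5% in lining and 62.5% in interstitial against BMDM. These shares rest on few genes, and without any single BMDM library 5 of the 8 were called in lining and 4 in interstitial. Those fits also called fewer of all genes, 3945 to 4048 in lining and 4150 to 4229 in interstitial, with 12824 to 12840 tested. The fit to all libraries called 5490 and 5643 of 12610. The median log2 fold change against BMDM was 1.04 in lining and 0.04 in interstitial over the 8 genes, and 0.00 and -0.01 over all genes. Both contrasts use the same 3 BMDM libraries.

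**Figure D2:**
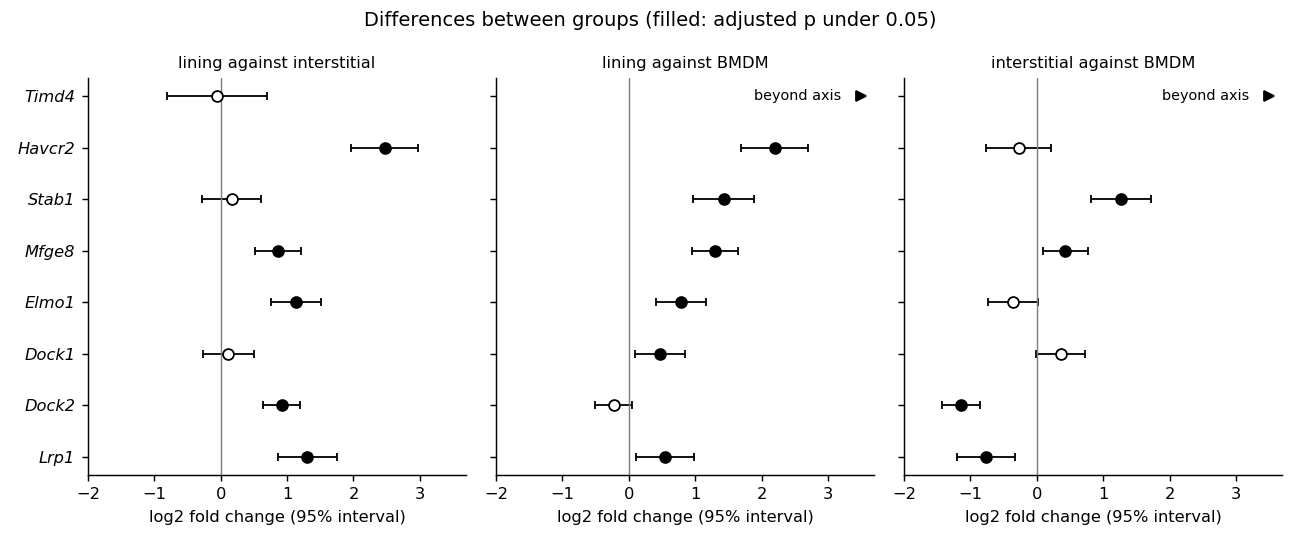
Log2 fold changes with 95% intervals for the 8 tested genes in the 3 comparisons (lining minus interstitial, lining minus BMDM, interstitial minus BMDM). Filled points were called at an adjusted p under 0.05. Timd4 against BMDM lies beyond the axis, and Lrp1 is above 0 in lining and below 0 in interstitial macrophages against BMDM.

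The order of levels within a group was read per kilobase of exon (RPKM, mean ± SD, n = 3). As the length is that of all merged exons, the order also depends on the annotated exons of each gene. In lining, Lrp1 with 298 ± 62.2 RPKM and Stab1 with 285 ± 58.0 RPKM led and overlapped, followed by Havcr2 with 135 ± 9.13 RPKM. Timd4 with 52.8 ± 13.2 RPKM and Dock2 with 38.8 ± 1.61 RPKM overlapped, as did Mfge8 with 31.4 ± 3.99 RPKM and Elmo1 with 27.6 ± 3.72 RPKM, and Dock1 came below them with 10.5 ± 1.51 RPKM. The lining order thus put Havcr2 next after the pair of large scavenger receptors and above Timd4.

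In interstitial macrophages Stab1 led alone with 254 ± 70.7 RPKM, ahead of Lrp1 with 121 ± 30.9 RPKM. Timd4 with 55.2 ± 29.7 RPKM came next and overlapped Havcr2 with 24.0 ± 9.32 RPKM, and Havcr2 in turn overlapped Dock2 with 20.6 ± 2.68 RPKM. Mfge8 with 17.3 ± 2.65 RPKM overlapped Dock2, and Elmo1 with 12.6 ± 2.83 RPKM overlapped Dock1 with 9.59 ± 1.68 RPKM. The leading receptor therefore differed from that of BMDM, where Lrp1 with 205 ± 8.60 RPKM was above Stab1 with 106 ± 6.65 RPKM in every library. Below these in BMDM came Dock2 with 45.2 ± 1.38 RPKM, Havcr2 with 29.4 ± 1.36 RPKM, Elmo1 with 16.1 ± 1.01 RPKM, Mfge8 with 12.8 ± 0.650 RPKM and Dock1 with 7.52 ± 0.651 RPKM, none of them overlapping its neighbour.

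**Figure D3:**
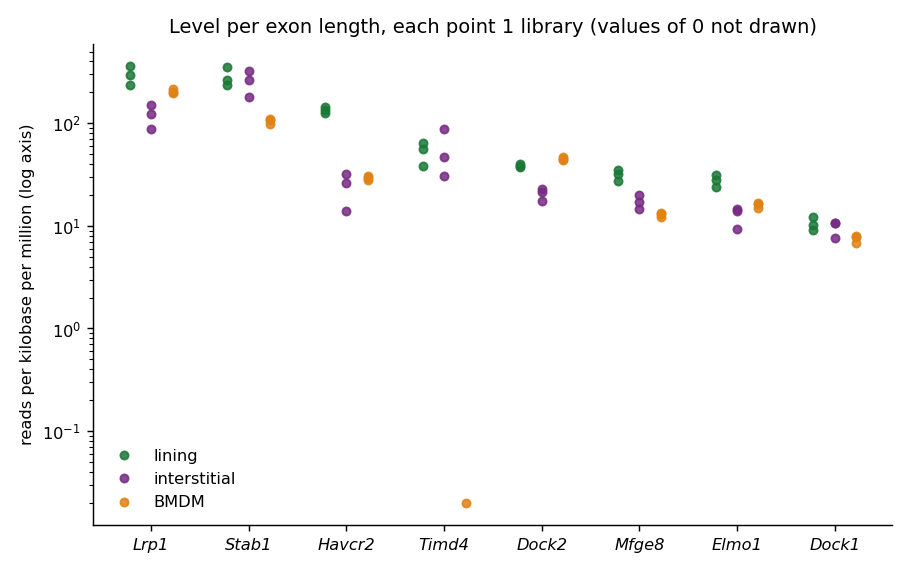
Levels per kilobase of exon (RPKM, log axis) of the 8 tested genes by library, with lining left of interstitial and interstitial left of BMDM. Libraries without a read are not drawn. Lrp1 and Stab1 are the highest in each group, and Havcr2 is the next in lining only at 135 RPKM on average.

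In these bulk libraries, fewer cells of a type and less RNA per cell cannot be told apart. The other genes of the uptake pathway were read from 10 lists with 109 genes, of which 99 were tested. In lining against interstitial, 10 were called higher and 5 lower, or 15.2%, where 5.79% of all genes were called. Without interstitial D, 12 were higher and 6 lower, where 797 of all 13140 genes tested were called. Against BMDM the counts were 36 higher and 12 lower in lining, or 48.5%, where 43.5% of all genes were called. In interstitial macrophages 38 were higher and 24 lower, or 62.6%, where 44.8% of all genes were called. The counts of single lists below are to be read beside these shares of all genes.

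The receptors that work beside the TIM proteins gave 2 higher and 0 lower of 7 tested in lining against interstitial. Trem2, a lipid-sensing receptor of macrophages, had 772 ± 138 CPM in lining and 249 ± 26.9 CPM in interstitial libraries (log2 fold change 1.63 ± 0.15 SE, edgeR adjusted p = 7.07e-05). Axl, a receptor kinase that binds Gas6, had 285 ± 142 and 48.7 ± 30.8 CPM (2.52 ± 0.47, edgeR adjusted p = 0.0178), a call lost with no filter, in the fit to 2 groups and without interstitial E, BMDM G or I (adjusted p up to 0.120). Mertk, the related kinase, averaged 178 ± 17.9 CPM in lining and 130 ± 21.6 CPM in interstitial against 17.9 ± 2.42 CPM in BMDM, and was called higher than BMDM in both (3.31 ± 0.18 and 2.87 ± 0.17, edgeR adjusted p = 4.13e-08 and 1.27e-07). Against BMDM the list had 3 higher and 3 lower in lining, and 2 higher and 4 lower in interstitial macrophages. Adgrb1 had no read in any library, and Stab2, the relative of Stab1, had 11 reads in BMDM and 0 in the sorted cells.

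Among bridging molecules 0 were higher and 2 lower of 9 in lining against interstitial. Pros1, the protein S gene, had 280 ± 16.8 CPM in lining and 427 ± 83.4 CPM in interstitial libraries (-0.61 ± 0.15, edgeR adjusted p = 0.0343), and was lost in 9 of 16 alternatives, namely the fit to 2 groups and all but 1 of the fits with a library left out, the exception being the one without interstitial F. Anxa1, annexin A1, had 481 ± 102 and 895 ± 234 CPM (-0.90 ± 0.20, edgeR adjusted p = 0.0194), and was lost in the fit to 2 groups and without lining A or B (adjusted p up to 0.0883). Against BMDM this list had 6 higher and 2 lower of 9 in lining and 7 higher and 1 lower in interstitial macrophages. C1qa, a chain of complement C1q, led in lining at 4034 ± 1166 CPM against 207.9 ± 6.92 CPM in BMDM (4.28 ± 0.29, edgeR adjusted p = 3.87e-07), and Pros1 was higher in interstitial at 4.04 ± 0.17 on the log2 scale (edgeR adjusted p = 7.10e-09). The largest fold of the list in interstitial macrophages was that of Thbs1, thrombospondin 1, at 148 ± 145 CPM against 7.50 ± 1.14 CPM in BMDM (4.32 ± 1.15, edgeR adjusted p = 0.0200). It was 3.37 without interstitial F, and the call was lost without any single BMDM library (adjusted p up to 0.0957).

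Of the 6 genes in the list of integrin chains that receive Mfge8 and their signalling, 2 were higher and 0 lower in lining against interstitial. Itgb5, the β5 chain, had 784 ± 167 CPM in lining and 63.1 ± 8.78 CPM in interstitial libraries (3.63 ± 0.18, edgeR adjusted p = 1.03e-06). Itgav, the αv chain, had 351 ± 49.7 and 106 ± 30.8 CPM (1.72 ± 0.20, edgeR adjusted p = 2.61e-04). BMDM lay between for Itgb5 at 253 ± 14.1 CPM, called lower than lining and higher than interstitial (1.63 ± 0.17 for lining and -1.99 ± 0.17 for interstitial against BMDM, edgeR adjusted p = 1.00e-05 and 2.26e-06). Itgb3, the other β chain that can pair with αv here, spread from 0.668 to 21.4 CPM in lining and from 0 to 41.4 CPM in interstitial libraries, and was not called between them.

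Around Elmo1 and the DOCK proteins, the Rac module gave 1 higher and 0 lower of 10 in lining against interstitial. That gene was Vav1, another Rac exchange factor of blood cells, with 258 ± 34.0 CPM in lining and 136 ± 32.4 CPM in interstitial libraries (0.92 ± 0.17, edgeR adjusted p = 0.00867). Rac1 itself averaged 532 ± 35.4 CPM in lining, 549 ± 42.5 CPM in interstitial and 518 ± 3.58 CPM in BMDM and was not called in any comparison. Of the 8 other DOCK genes, 2 were higher and 0 lower, namely Dock4 with 108 ± 12.4 and 33.4 ± 12.6 CPM (1.66 ± 0.23, edgeR adjusted p = 0.00111) and Dock8 with 399 ± 51.7 and 214 ± 27.9 CPM (0.90 ± 0.14, edgeR adjusted p = 0.00276). Dock5, a close relative of Dock1, was lower than BMDM in both synovial groups, at 12.4 ± 0.753 CPM in lining and 6.88 ± 5.48 CPM in interstitial against 101 ± 4.73 CPM in BMDM (-3.01 ± 0.37 and -3.84 ± 0.39, edgeR adjusted p = 4.34e-05 and 7.99e-06), the interstitial value being -4.67 without interstitial F.

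Partners of Lrp1 and Gulp1 gave 0 higher and 1 lower of 10 in lining against interstitial. Cltc, the clathrin heavy chain, had 875 ± 87.9 CPM in lining and 1525 ± 388 CPM in interstitial libraries (-0.80 ± 0.18, edgeR adjusted p = 0.0206), lost in the fit to 2 groups and when lining A, lining B or interstitial E was left out (adjusted p up to 0.0979). Abca1, the cholesterol exporter, was higher than BMDM in both groups, at 898 ± 99.97 CPM in lining and 565 ± 153 CPM in interstitial against 19.1 ± 2.45 CPM in BMDM (5.55 ± 0.24 and 4.88 ± 0.23, edgeR adjusted p = 7.28e-09 and 1.44e-08). Of the 9 other LDL receptor family genes, 0 were called between lining and interstitial by edgeR's test.

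The inhibitory list, which holds receptors and signals that restrain uptake or the cell, had 2 higher and 2 lower of 8 in lining against interstitial. Lgals9, which encodes galectin-9, a ligand of TIM-3, had 282 ± 50.4 and 132 ± 15.04 CPM in lining and interstitial libraries (1.10 ± 0.16, edgeR adjusted p = 0.00126). Sirpa, the receptor of the CD47 signal, had 1436 ± 102 and 898 ± 71.5 CPM (0.68 ± 0.13, edgeR adjusted p = 0.00764), lost in the fit to 2 groups alone (adjusted p = 0.0621). Siglecg, a sialic acid receptor, rested on 10 reads in lining, all in library B, against 208 in interstitial libraries (-4.38 ± 1.01, edgeR adjusted p = 0.0251), and was lost without lining A or C or interstitial E or F, and it was -9.86 without lining B, where lining had no read. Pecam1, also an endothelial marker, had 2.69 ± 1.76 and 17.3 ± 14.1 CPM (-2.55 ± 0.66, edgeR adjusted p = 0.0446) and was lost with limma-voom, in the fit to 2 groups and without any library other than interstitial D or E, with -3.23 without lining B and -1.69 without interstitial F. None of the 22 phagosome genes was called, and of 10 find-me and lipid exposure genes Panx1, a channel of the find-me signal, was higher in lining at 11.1 ± 2.48 against 4.55 ± 1.11 CPM (1.23 ± 0.31, edgeR adjusted p = 0.0384; lost in 12 of 16 alternatives, among them all fits with a library left out except that without interstitial E).

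**Figure D4:**
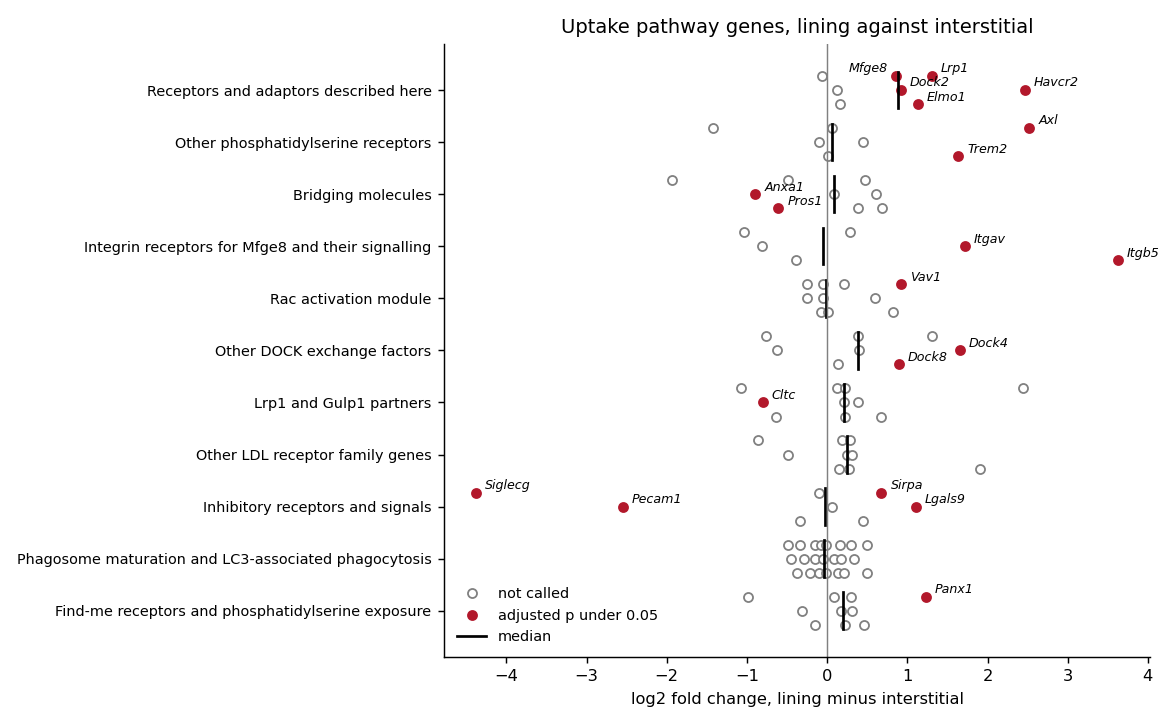
Log2 fold change of lining minus interstitial for the 8 tested receptors and adaptors and for the 10 lists of other uptake genes, 1 point per gene. Filled points were called at an adjusted p under 0.05 and the bar is the median. The median is 0.89 in the top line and between -0.05 and 0.39 in the other lists, and the 22 phagosome genes hold no filled point. The genes and lists were chosen with earlier results of these data known.

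The genes most like each receptor or adaptor were taken as the 3 tested genes with the highest Pearson correlation of log2 CPM over the 9 libraries. The libraries share their group and their depth, so these values describe likeness only. Timd4 was followed most closely by Tmem176b (r = 0.998), Mill2 and Siglece, and Stab1 by Dusp6 (r = 0.980), Pid1 and Rab3il1. Havcr2 was nearest to Vcan (r = 0.993), Klhl23 and Ncf4, and Mfge8 to Lonrf1 (r = 0.994), Def8 and Hebp1. Elmo1 was nearest to Camk2d (r = 0.982), Nr1h3 and Rptor, Dock2 to Cd300c2 (r = 0.982), Atpaf2 and Atp6ap1, and Lrp1 to Zfp607a (r = 0.974), Myo9b and Vps51. Dock1 was nearest to Mgp (r = 0.962), Tcaim and Cygb.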

How the data were processed

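Poly(A) RNA of 9 libraries was read as single 101 bp reads from stranded TruSeq libraries made with 500 ng RNA, per the labels' protocols. The authors deposited a single table of raw read counts per gene, made with featureCounts 1.6.1 over exons of Ensembl GRCm38 release 91 with reverse-stranded counting, per the file headers. STAR 2.5.4a, DESeq2 1.20.0, R 3.5.0, cutadapt 1.15 and bcl2fastq 2.17.1.14 appear in the submitters' processing notes with no settings. Of 53465 genes, 53274 had a symbol.

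Counts were analysed here in R 4.3.3 with edgeR 4.0.16. filterByExpr (minimum count 10, total 15) kept 12610 genes, and libraries were scaled by TMM. Group means were fitted over all 9 libraries by quasi-likelihood (6 residual degrees of freedom), with 2-sided tests of 3 contrasts. Benjamini-Hochberg adjustment covered the 12610 genes, and an adjusted p under 0.05 counts as a call. The script was tested on simulated data. SE is the log2 fold change divided by the root of its F statistic, and CPM carries the TMM factors. Intervals of count ratios are exact (Clopper-Pearson), and they and the floor of 3 counts cover counting error only.

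The genes and lists were chosen with earlier results of these data known. All 9 genes are named. Of each list and contrast, at most 3 called genes per direction, those with the largest log2 fold change, could be named, plus genes named for their level (Rac1, Itgb3, Adgrb1, Stab2), which were chosen after their values were seen. Motif searches used RefSeq promoters of GRCm38.p6. The alternatives were other scaling (DESeq2 size factors, library totals), no filter or a mean of at least 1 CPM, DESeq2 1.42.0, limma-voom (limma 3.58.1), a fit to the 2 groups compared, and each library left out in turn, 16 in all.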

Additional observations from a re-analysis of the deposited data

Results flagged for a closer look

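The effects of the synovial groups against BMDM differed from each other, by the test of lining against interstitial itself, for 5 of the receptors and adaptors. This difference of log2 fold changes was 2.47 for Havcr2, 1.31 for Lrp1, 1.13 for Elmo1, 0.92 for Dock2 and 0.86 for Mfge8. For Lrp1 the contrasts were called in opposite directions, at 0.54 in lining, a call lost in 9 of 16 alternatives, and -0.76 in interstitial macrophages. Opposite called directions were also seen for Trem2 (difference 1.63, at 0.62 and -1.01) and Itgb5 (difference 3.63, at 1.63 and -1.99). Over the 99 tested genes of the pathway lists, 15 were called in the test of lining against interstitial. Both contrasts use the same BMDM libraries.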

How the results depend on the processing

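The 5 calls of lining over interstitial held in all 16 alternatives. Of the log2 fold changes of the 8 genes under an alternative, 347 kept direction and side of the threshold, 25 lost the call, 6 gained one and 6 turned sign, the last all among uncalled differences of lining and interstitial. Timd4 turned to 0.030 with limma-voom and ranged from -0.38 to 0.40 over fits with a library left out, Stab1 from -0.064 to 0.34 and Dock1 from -0.038 to 0.20. The 15 called genes of the pathway lists in that comparison became 23 with DESeq2 (16 higher, 7 lower), 8 in the fit to 2 groups (7 higher, 1 lower) and 9 to 18 with a library left out. Calls over all genes moved too, from 730 of 12610 to 1299 of 14265 with DESeq2 and 366 of 10830 in the fit to 2 groups. They were 396 to 888 with a library left out. The count of called receptors and adaptors ranged from 5 to 8 in lining against BMDM and from 4 to 6 in interstitial against BMDM. Calls over all genes ranged from 3945 to 6673 and from 4150 to 7142 in these comparisons. The cause of these changes was not tested. No paired analysis was possible because the libraries carry letters that no groups share. Scaling by library totals moved the median of all genes by over 0.1 in lining against BMDM, to -0.11. Over larger sets of genes, it was -0.17 in lining and -0.19 in interstitial against BMDM with no filter. With DESeq2 it was 0.32 and 0.27. Depth limits Gulp1 and Siglecg, where 3 counts reach 1.46 CPM in the shallowest library.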

Other observations

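Of the 22 phagosome genes, 6 were called upward and 0 downward in lining, and 7 upward and 1 downward in interstitial macrophages, against BMDM. The shares called, 27.3% and 36.4%, were below the 43.5% and 44.8% of all genes. Map1lc3a, an LC3 gene, was the largest of these in both (log2 fold change 2.54 ± 0.29 SE in lining and 2.25 ± 0.29 in interstitial, edgeR adjusted p = 2.39e-05 and 5.60e-05). Dnase2a, a lysosomal DNase, was the gene lower in interstitial (-0.76 ± 0.14, edgeR adjusted p = 0.00103). Among the LDL receptor family, Lrp6, a Wnt co-receptor, was higher in both groups, at 309 ± 23.8 CPM in lining and 280 ± 61.2 CPM in interstitial against 78.0 ± 2.39 CPM in BMDM (1.99 ± 0.16 and 1.84 ± 0.16, edgeR adjusted p = 1.52e-06 and 2.58e-06).

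The find-me and lipid exposure list of 10 genes had 4 calls upward and 2 downward in lining, and 5 upward and 3 downward in interstitial macrophages, against BMDM. These are 60% and 80% of the list, where 43.5% and 44.8% of all genes were called. S1pr1, a receptor for sphingosine 1-phosphate, was higher in both (2.34 ± 0.21 and 2.05 ± 0.20, edgeR adjusted p = 2.74e-06 and 7.58e-06). Panx1 was lower in both (-1.51 ± 0.29 and -2.75 ± 0.30, edgeR adjusted p = 0.00117 and 1.76e-05).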
